A study of Sus scrofa with 14 samples.

Results

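The insulin-like growth factor (IGF) system was described in adipose tissue of wild boars and Bama pigs through 10 genes chosen by symbol. They are the ligands IGF1 and IGF2, the receptors IGF1R and IGF2R, and the binding proteins IGFBP2, IGFBP3, IGFBP4, IGFBP5, IGFBP6 and IGFBP7. Of the 21280 genes with expression values, 8 could be matched to these symbols. The expression of IGF2 and IGFBP3 was not analysed here, because no identifier in the tables used was paired with either symbol, and both enter only through their position. All 10 genes have a position for compartments and topologically associating domains (TADs). In the RefSeq annotation the genes lie at chr5:81762027-81909253 (IGF1), chr2:1469183-1496417 (IGF2), chr1:137383623-137691038 (IGF1R), chr1:7369485-7472480 (IGF2R), chr15:118822092-118850985 (IGFBP2), chr18:50002921-50009425 (IGFBP3), chr12:21966524-21980043 (IGFBP4), chr15:118861816-118877787 (IGFBP5), chr5:18352884-18357225 (IGFBP6) and chr8:56283089-56357822 (IGFBP7). The samples were greater omentum (GOM) and upper layer of backfat (ULB) of 2-year-old female pigs. RNA-seq and in situ Hi-C each gave 7 libraries, with 2 for each depot of the wild boars, 2 for the GOM of Bama pigs and 1, numbered replicate 2, for their ULB. Wild boars were taken into captivity when young, Bama pigs came from a line without long inbreeding, and both were kept on 1 farm. By the methods each animal was the source of both tissues. The labels do not say that replicate numbers are animal numbers, so reading libraries of the same breed and number as 1 animal is an assumption, on which every value given within an animal or with the animal as a block rests.

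IGF1 and IGF2 are secreted growth factors that signal mainly through the tyrosine kinase receptor IGF1R, while IGF2R takes up IGF2 and delivers it to lysosomes. The binding proteins hold the ligands outside the cell and either limit or prolong their action, and proteases such as PAPPA release the ligand again. In fat the system bears on the proliferation and differentiation of adipocyte precursors, and IGF2, which is expressed from the paternal allele, is a known locus for growth and fatness in pigs.

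The 250 bases before the outermost annotated start were read from the RefSeq genome of Sscrofa11.1, the build of the deposited files, for the 6 genes on which the results turn. IGF1 is shown for its compartment sign, IGF2 for its place at a TAD edge, IGFBP2, IGFBP4 and IGFBP5 for their fitted depot differences and IGFBP6 for its fitted breed difference. None of these fitted differences was called in the first fit given below for each comparison. The windows lie at chr5:81761777-81762026 (plus strand), chr2:1496418-1496667 (minus), chr15:118821842-118822091 (plus), chr12:21980044-21980293 (minus), chr15:118877788-118878037 (minus) and chr5:18352634-18352883 (plus). Capitals mark exact matches on either strand to the GC box GGGCGG or the CCAAT box, and the TATA box TATAAA was searched as well.
IGF1: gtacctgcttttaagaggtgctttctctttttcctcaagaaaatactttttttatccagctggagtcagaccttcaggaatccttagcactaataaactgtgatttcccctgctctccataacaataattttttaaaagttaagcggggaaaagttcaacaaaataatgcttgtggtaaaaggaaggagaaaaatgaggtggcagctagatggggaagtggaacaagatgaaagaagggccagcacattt
IGF2: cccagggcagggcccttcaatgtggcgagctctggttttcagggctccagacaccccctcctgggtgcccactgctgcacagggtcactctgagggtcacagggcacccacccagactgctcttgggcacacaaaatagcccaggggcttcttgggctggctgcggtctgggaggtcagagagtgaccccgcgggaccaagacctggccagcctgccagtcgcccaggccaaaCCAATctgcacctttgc
IGFBP2: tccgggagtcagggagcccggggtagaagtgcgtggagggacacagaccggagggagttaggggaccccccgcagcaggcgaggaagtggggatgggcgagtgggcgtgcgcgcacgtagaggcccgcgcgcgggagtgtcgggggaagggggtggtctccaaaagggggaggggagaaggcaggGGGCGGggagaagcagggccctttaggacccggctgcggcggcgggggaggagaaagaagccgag
IGFBP4: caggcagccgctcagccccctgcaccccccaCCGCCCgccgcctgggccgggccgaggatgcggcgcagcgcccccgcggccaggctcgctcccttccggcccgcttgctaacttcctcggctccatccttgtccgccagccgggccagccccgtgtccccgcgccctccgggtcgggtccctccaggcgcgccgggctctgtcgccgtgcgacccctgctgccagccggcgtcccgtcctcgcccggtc
IGFBP5: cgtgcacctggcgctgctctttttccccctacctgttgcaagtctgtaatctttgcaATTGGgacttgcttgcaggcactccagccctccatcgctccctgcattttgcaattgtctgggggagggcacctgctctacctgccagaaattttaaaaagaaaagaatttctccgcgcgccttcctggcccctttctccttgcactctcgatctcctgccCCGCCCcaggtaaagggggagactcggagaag
IGFBP6: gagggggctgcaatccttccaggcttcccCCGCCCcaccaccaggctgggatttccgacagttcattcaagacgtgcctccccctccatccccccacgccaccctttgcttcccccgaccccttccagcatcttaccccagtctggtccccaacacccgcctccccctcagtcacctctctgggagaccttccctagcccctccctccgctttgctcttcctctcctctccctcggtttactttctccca
The window of IGF1 precedes the start of 1 of its 8 annotated transcripts, and the other 7 start from 81776397 to 81781261. The window of IGF2 precedes the start of 2 of 17. The window of IGF1 held none of the 3 motifs and 1 CpG dinucleotide, and its GC content of 38.8% exceeded that of 8.7% of the windows of 18722 protein-coding genes. Over those genes, 46.1% of windows held a GC box, 31.7% a CCAAT box and 9.65% a TATA box, with a median GC content of 58.0%. IGFBP2 and IGFBP4 each had 1 GC box, with 22 and 33 CpG dinucleotides. IGFBP5 had 1 GC box and 1 CCAAT box, IGFBP6 had 1 GC box and IGF2 had 1 CCAAT box. Of the genes not printed, IGF1R, IGF2R, IGFBP3 and IGFBP7 had 4, 6, 4 and 3 GC boxes. No window of the 10 held an exact TATAAA, the only form of the TATA box searched. A match is a description of these letters and not a binding site.

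Estimated counts summed to between 10833153 and 18627076 per RNA-seq library. The adipocyte markers fixed for the check, 7 of 7 measured, summed to between 9737 and 17997 TPM (transcript abundance scaled by length and library) in each library, with FABP4 and ADIPOQ leading. Marker levels of other cell types and tissues differed between the groups. Mesothelial markers (3 of 7 measured) summed to 66.5 to 154 TPM in GOM and to 0.493 to 5.79 TPM in ULB. Leukocyte markers (7 of 7 measured) summed to 163 to 357 TPM in GOM and to 106 to 149 TPM in ULB. Liver markers (6 of 7 measured) summed to 473 and 1197 TPM in Bama pig GOM and 239 TPM in Bama pig ULB, against 168 to 214 TPM in wild boars. APOA1 made up most of the sum in wild boars, at 163 to 206 TPM, and was 146 to 227 TPM in Bama pigs. ALB was at most 6.61 TPM in wild boars, 293 and 873 TPM in Bama pig GOM and 77.7 TPM in Bama pig ULB. Skeletal muscle markers (4 of 7 measured) summed to 373 TPM in wild boar ULB replicate 1 and to at most 8.66 TPM elsewhere. Pericyte and smooth muscle markers (7 of 7 measured) summed to 1337 TPM in wild boar GOM replicate 2 and to 432 to 797 TPM elsewhere. By Spearman's rho across genes, the GOM library of Bama pig replicate 1 correlated more with the ULB library of that breed (0.9306) than with the other GOM library (0.9203), although its mesothelial markers, at 129 TPM, were within the range of GOM and its rho with the wild boar ULB libraries was 0.893 and 0.9087. In these bulk samples, fewer cells of a type and less RNA per cell cannot be told apart.

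IGFBP7 was the most abundant measured transcript of the system in each of the 7 libraries, while IGFBP2, also a binding protein, ranked last of the 8 in replicate 1 of Bama pig GOM and in the Bama pig ULB library. TPM is scaled per transcript length and can be compared between genes. The summed TPM of the 6 measured binding proteins lay between 12.7 and 51.4 times the TPM of IGF1. IGFBP7 supplied 63.8% to 68.3% of that sum in the 4 GOM libraries and 49.9% to 51.6% in the 3 ULB libraries. By mean TPM over 7 libraries the order was IGFBP7 at 524 ± 166, IGFBP5 at 153 ± 73.3, IGFBP6 at 93.8 ± 60.5, IGFBP4 at 66.4 ± 36.1, IGF1 at 36.3 ± 13.2, IGFBP2 at 28.8 ± 19.1, IGF2R at 26.4 ± 5.32 and IGF1R at 19.6 ± 12.2 (SD, n = 7). From IGFBP5 downwards, neighbours in this order differed by less than the larger of their SDs, whereas IGFBP7 and IGFBP5 differed by more. IGFBP5 was the next gene in 5 of the 7 libraries, but IGFBP6 was in wild boar GOM replicate 2 and IGFBP4 was in Bama pig GOM replicate 2.

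**Figure D1:**
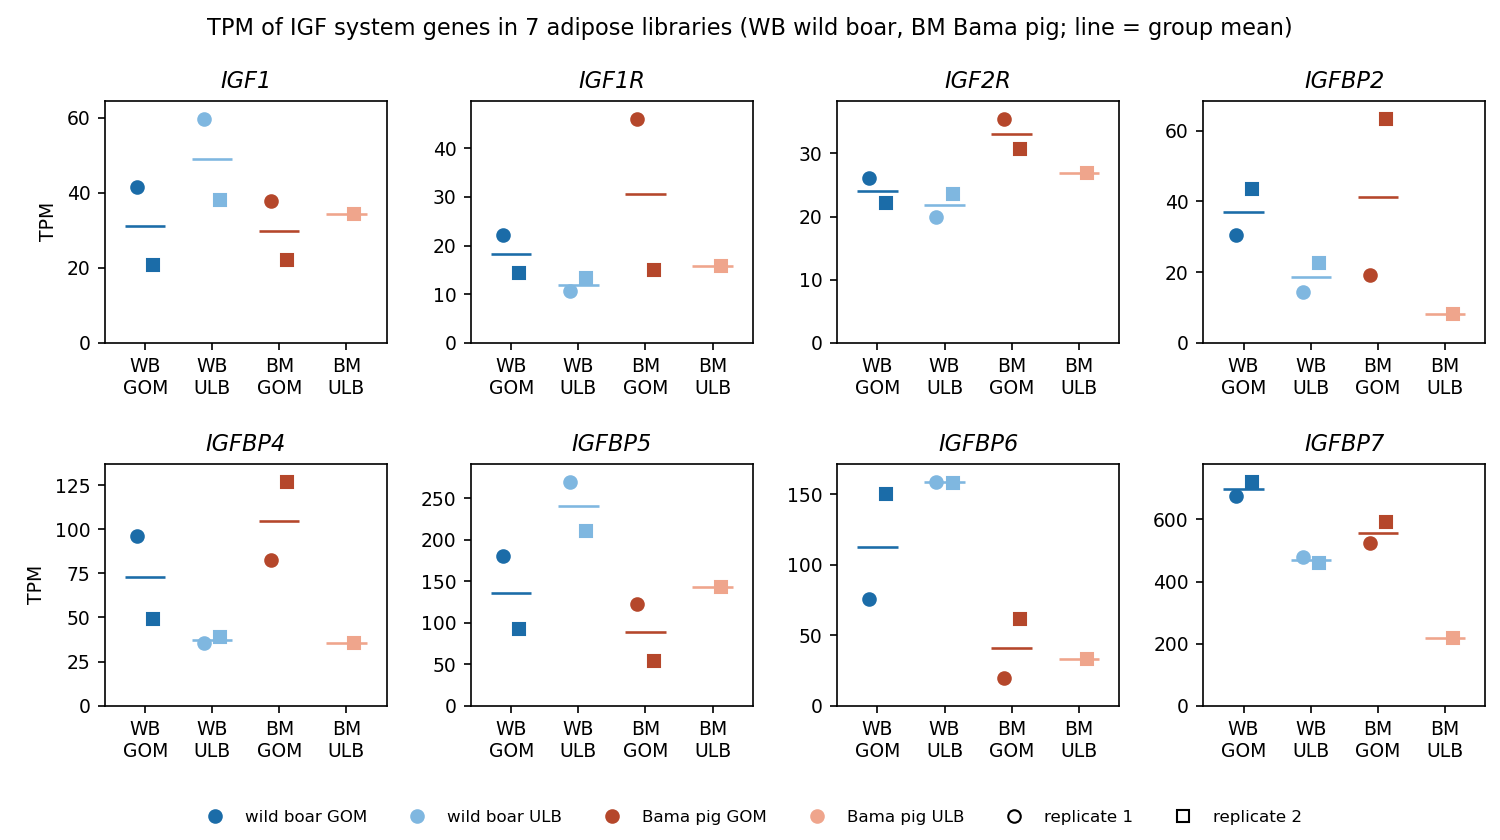
TPM (vertical axis, from 0) of the 8 measured IGF system genes in wild boar (WB) and Bama pig (BM) GOM and ULB, with 1 point per library and a line at the group mean. The 4 GOM libraries of IGFBP4 sit between 49.2 and 127, above the 35.3 to 39.1 of the ULB libraries, and the wild boar libraries of IGFBP6 sit between 75.6 and 159, above the 19.6 to 61.8 of the Bama pig libraries.

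IGF1 (ENSSSCG00000000857), the ligand most tied to growth hormone, had TPM values of 41.6 and 20.6 (GOM) and 59.7 and 38.1 (ULB) in wild boars. In Bama pigs it had 37.7 and 22.0 in GOM and 34.4 in ULB. The depots overlapped, although within each of the 3 animals with both depots the GOM was lower.

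IGF1R (ENSSSCG00000030560), the signalling receptor, had TPM values of 22.1 and 14.4 (GOM) and 10.6 and 13.3 (ULB) in wild boars, and of 46.1 and 15.0 (GOM) and 15.7 (ULB) in Bama pigs. The value of 46.1 belongs to Bama pig GOM replicate 1, and the other 6 libraries lay between 10.6 and 22.1. IGF2R (ENSSSCG00000004044), the uptake receptor, had TPM values of 26.1 and 22.1 (GOM) and 19.9 and 23.6 (ULB) in wild boars, and of 35.5 and 30.7 (GOM) and 26.9 (ULB) in Bama pigs. IGF2R exceeded IGF1R in TPM in 6 of the 7 libraries, by 1.18 to 2.05 times, and the exception was again Bama pig GOM replicate 1, with a ratio of 0.77. IGF2R was the steadiest measured member, with 1.78 times between its highest and lowest library, against 8.11 times for IGFBP6 and 7.85 times for IGFBP2.

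IGFBP2 (ENSSSCG00000035392), a binding protein made in liver and in fat, had TPM values of 30.6 and 43.5 (GOM) and 14.3 and 22.7 (ULB) in wild boars. In Bama pigs it had 19.2 and 63.4 in GOM and 8.08 in ULB. The depots overlapped through Bama pig GOM replicate 1, which lay below wild boar ULB replicate 2. IGFBP4 (ENSSSCG00000017472), which binds IGF until PAPPA cleaves it, had TPM values of 96.2 and 49.2 (GOM) and 35.5 and 39.1 (ULB) in wild boars, and of 82.5 and 127 (GOM) and 35.3 (ULB) in Bama pigs. All 4 GOM libraries lay above all 3 ULB libraries.

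IGFBP5 (ENSSSCG00000025924), which also binds extracellular matrix, had TPM values of 180 and 92.5 (GOM) and 270 and 211 (ULB) in wild boars, and of 123 and 53.8 (GOM) and 143 (ULB) in Bama pigs. It was higher in ULB within each of the 3 animals, while the breeds overlapped in GOM and both wild boar values lay above the Bama pig value in ULB. IGFBP7 (ENSSSCG00000008913), a low-affinity binder abundant around vessels, had TPM values of 674 and 722 (GOM) and 480 and 460 (ULB) in wild boars, and of 523 and 591 (GOM) and 219 (ULB) in Bama pigs. All 4 GOM values lay above all 3 ULB values on the TPM scale, and the Bama pig ULB value was the lowest of the 7.

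IGFBP6 (ENSSSCG00000000261), which prefers IGF2 to IGF1, had TPM values of 75.6 and 150 (GOM) and 159 and 158 (ULB) in wild boars, and of 19.6 and 61.8 (GOM) and 33.1 (ULB) in Bama pigs. Its 4 wild boar libraries lay above its 3 Bama pig libraries in both depots, while the depots overlapped.

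The depots were compared over all 7 libraries with breed as a term, in edgeR's quasi-likelihood test on TMM-normalized counts, where a call needed an adjusted p under 0.05 together with a log2 fold change beyond 1 in size. None of the 8 measured members was called, where 3.58% of 17877 genes were (410 higher and 230 lower in GOM). At an unadjusted p below 0.05 there were 4 members and 3550 genes. With the animal as a block, IGFBP2 and IGFBP4 were called higher in GOM, 2 of 8 members where 2.99% of genes were called in that direction. In that fit Bama pig GOM replicate 1, which has no ULB library of its animal, adds nothing to the depot difference. The block and the fit without that library, given below, are therefore not separate support. DESeq2 also called IGFBP2 and IGFBP4, with 4.53% of genes called higher in GOM.

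IGFBP2 was higher in GOM by 1.52 on the log2 scale (SE 0.44, adjusted p = 0.0932 in edgeR's test) and, with the animal as a block, rose by 1.68 (SE 0.35, adjusted p = 0.0140). Within wild boar 1, wild boar 2 and Bama pig 2 the log2 differences between the depots were 1.13, 1.39 and 2.56 on TMM-normalized CPM. Its highest TPM, 63.4, was in the library with the highest sum of liver markers, Bama pig GOM replicate 2 (1197 TPM). Its lowest TPM in GOM, 19.2, was in the library with the next highest sum, Bama pig GOM replicate 1 (473 TPM). Without Bama pig GOM replicate 1 the value was 1.70 (adjusted p = 0.0437), in a fit that called 1.97% of genes higher in GOM, and without wild boar ULB replicate 1, the library with muscle transcripts, it was 1.46 (adjusted p = 0.253). The wild boar libraries alone gave 1.24 (adjusted p = 0.119 in edgeR's test). Their liver markers summed to 168 to 214 TPM, of which APOA1 made up most. The part of liver transcripts in the IGFBP2 difference was not tested.

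IGFBP4 was higher in GOM by 1.15 (SE 0.30, adjusted p = 0.0639 in edgeR's test) and, with the animal as a block, rose by 1.23 (SE 0.30, adjusted p = 0.0378). The log2 differences within the 3 animals were 1.48, 0.78 and 1.44. Of all genes tested, 7.97% had all 4 GOM libraries above all 3 ULB libraries on TMM-normalized CPM, and IGFBP4 was the 1 member among them. IGFBP7, which was separated on the TPM scale, overlapped between the depots on this one. No member had all 4 GOM libraries below all 3 ULB libraries, which 5.41% of genes did. Without Bama pig GOM replicate 1 the value was 1.26 (adjusted p = 0.0464) and without wild boar ULB replicate 1 it was 1.15 (adjusted p = 0.216).

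The other 6 members were not called with or without the block. IGFBP7 had a log2 fold change of 0.84 (SE 0.27, adjusted p = 0.123 in edgeR's test), with 0.53, 1.10 and 1.03 within the 3 animals. IGFBP5, next to IGFBP2 on chromosome 15, had the opposite sign, -0.85 (SE 0.35, adjusted p = 0.215), with -0.55, -0.74 and -1.82 within the animals. The TPM ratio of IGFBP5 to IGFBP2 was accordingly 9.29 to 18.8 in the ULB libraries and 0.85 to 6.43 in the GOM libraries. IGF1 had -0.55 (SE 0.33, adjusted p = 0.375), and -0.35 without wild boar ULB replicate 1. IGF1R had 0.69 (SE 0.34, adjusted p = 0.292), with 1.11 and 0.56 in the wild boars and -0.47 in Bama pig 2, and 0.41 without Bama pig GOM replicate 1. IGF2R had 0.16 (SE 0.24, adjusted p = 0.735) and IGFBP6 -0.18 (SE 0.42, adjusted p = 0.837), the latter with a mixed sign among the animals. Over the 8 members the median log2 fold change was 0.43, against 0.02 over all genes tested. The summed TPM of mesothelial and of leukocyte markers was higher in all GOM libraries than in all ULB libraries, as given above. No leukocyte marker was called, with 2 higher and 1 lower in GOM at an unadjusted p below 0.05 in edgeR's test. Of the 7 fibroblast and progenitor markers, DPT and PI16 were called higher in GOM. At an unadjusted p below 0.05 in edgeR's test, 3 of the 7 were higher and 2 lower in GOM. The sum of the 7 was lower in each GOM library (3366 to 4664 TPM) than in each ULB library (4786 to 8067 TPM). DSP of the keratinocyte list was called higher in GOM. The part of these markers in the depot differences was not tested.

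**Figure D2:**
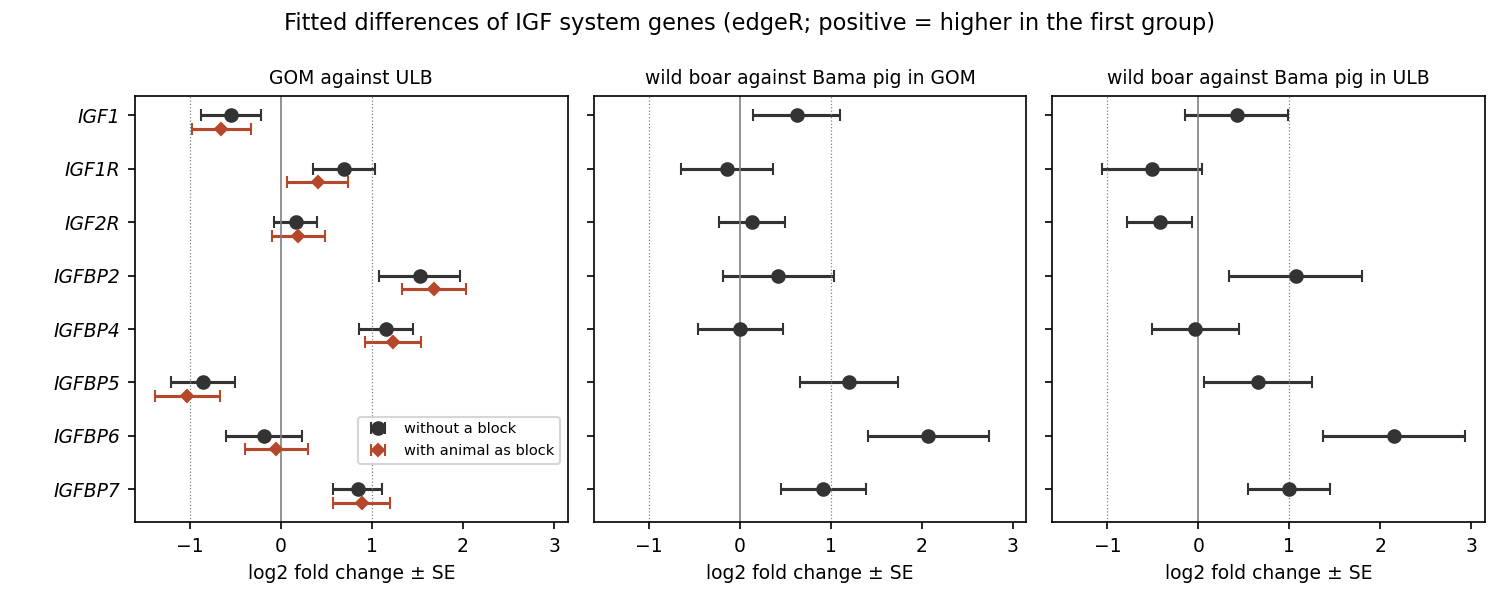
Fitted log2 fold change with its standard error (horizontal axis) for the 8 measured members in 3 comparisons, with dotted lines at -1 and 1 and, for the depots, a second point with the animal as a block. IGFBP2 and IGFBP4 sit right of 1 between the depots, at 1.52 and 1.15, and IGFBP6 sits near 2 between the breeds in both depots, at 2.07 and 2.15.

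The breeds were compared within each depot, as in the study. The study used DESeq2 and had 2 Bama pig libraries in ULB, 1 of them from its earlier work and not used here. In GOM, 2 wild boar libraries stood against 2 Bama pig libraries, and none of the 8 members was called, where 0.0241% of 16615 genes were. At an unadjusted p below 0.05 there were 1 member and 1329 genes. DESeq2 called none of the members and 167 genes. In ULB, with 1 Bama pig library assumed to vary like the other groups, none of the members was called in the 4-group model, where 0.252% of 17877 genes were. There 1 member and 2671 genes had an unadjusted p below 0.05, and DESeq2 called none of the members.

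IGFBP6 had the largest fitted breed difference of the members in both depots over all libraries, but not in GOM without Bama pig GOM replicate 1, where it was 1.44 and IGFBP5 was 1.83, or without wild boar GOM replicate 2, where it was 1.31 and IGFBP5 was 1.48. In GOM its log2 fold change, wild boar over Bama pig, was 2.07 (SE 0.66, adjusted p = 0.591 in edgeR's test), and in ULB it was 2.15 (SE 0.78, adjusted p = 0.282). Of all genes tested, 5.0% had all 4 wild boar libraries above all 3 Bama pig libraries and 5.88% had them below, and IGFBP6 was the 1 member in either group. A single breed term over the 7 libraries with depot as the other term, chosen after seeing the data, gave 2.11 (SE 0.45, adjusted p = 0.0711) where 0.42% of genes were called, and its libraries are not independent, because animals gave both depots. IGFBP6 passed the call in 2 alternative fits, each with a single library in 1 arm, so that the spread came from the 2 libraries of the other arm and the lone library was assumed to vary like them. With wild boar GOM replicate 2 against both Bama pig GOM libraries it was 2.55 (adjusted p = 0.0254), in a fit that called 0.367% of genes higher in wild boar, and with both wild boar ULB libraries against the 1 of the Bama pig, fitted alone, it was 2.16 (adjusted p = 0.0478), in a fit that called 0.247% of genes so. The GOM value was 3.24 without Bama pig GOM replicate 2, and neither this nor the 1.44 and 1.31 passed the call. The sum of liver markers was higher in each Bama pig library than in each wild boar library, although APOA1 overlapped between the breeds. Over 6 liver markers the median log2 fold change, wild boar over Bama pig, was -4.65 in GOM and -2.92 in ULB. In GOM 5 of the 6 were lower in wild boar at an unadjusted p below 0.05 in edgeR's test, and APOB was called. In GOM the median log2 fold change towards wild boar was 1.39 over 7 pericyte and smooth muscle markers, 3 of them at an unadjusted p below 0.05 in edgeR's test, and 0.96 over 7 fibroblast and progenitor markers. In ULB these medians were -0.63 and 0.41. The pericyte and smooth muscle markers summed to 432 and 1337 TPM in wild boar GOM replicates 1 and 2, and to 663 and 466 TPM in Bama pig GOM. The library at 1337 TPM is the lone wild boar library of the fit that gave 2.55. The part of these markers in the IGFBP6 difference was not tested.

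IGFBP5 had a log2 fold change of 1.20 (SE 0.53, adjusted p = 0.626 in edgeR's test) in GOM and 0.65 (SE 0.59, adjusted p = 0.591) in ULB. IGFBP7 had 0.92 (SE 0.46, adjusted p = 0.630) and 1.00 (SE 0.45, adjusted p = 0.340). IGF1 had 0.63 (SE 0.48, adjusted p = 0.712) in GOM and 0.42 (SE 0.56, adjusted p = 0.715) in ULB. All of these lay above 0, that is towards wild boar, and none passed the threshold. Leaving out single libraries gave 0.18 to 0.99 for IGF1 in GOM, lowest without wild boar GOM replicate 1, and 0.78 to 1.83 for IGFBP5, lowest without Bama pig GOM replicate 2. Without wild boar ULB replicate 1 the ULB value was -0.05 for IGF1 and 0.36 for IGFBP5.

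IGFBP2 had 0.43 (SE 0.61, adjusted p = 0.839) in GOM and 1.07 (SE 0.73, adjusted p = 0.482) in ULB. The GOM value of IGFBP2 turned to -0.22 without Bama pig GOM replicate 1 and to -0.02 without wild boar GOM replicate 2. IGFBP4 was nearest to 0, at 0.01 (SE 0.47, adjusted p = 0.997) and -0.03 (SE 0.48, adjusted p = 0.980). The receptors differed by -0.14 (SE 0.51, adjusted p = 0.948) for IGF1R and 0.13 (SE 0.36, adjusted p = 0.929) for IGF2R in GOM. In ULB they differed by -0.51 (SE 0.55, adjusted p = 0.649) and -0.42 (SE 0.36, adjusted p = 0.563). The median over the members was 0.53 in GOM and 0.54 in ULB, against -0.01 and 0.00 over all genes tested. On the TPM scale the median over all genes in GOM was -0.49, so member values in GOM were lower there too, with IGFBP6 at 1.60, IGF1 at 0.02, IGFBP4 at -0.57 and IGF2R at -0.45 on the log2(TPM + 0.5) scale.

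A difference between the breeds in the depot effect was not called for any gene by edgeR. At an unadjusted p below 0.05 there were 869 of 17877 genes and 0 of the 8 members, whose smallest adjusted p was 0.989. DESeq2 called 52 genes and none of the members. The log2 depot difference of IGF2R was 0.44 and 0.36 in the wild boars and -0.22 in Bama pig 2, and neither this nor the sign change of IGF1R passed that test.

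Of 33 further genes of the pathway, fixed by name, 29 were measured and 27 tested, and none was called between the depots, between the breeds in GOM or ULB, or for the interaction. Between the depots 5 were higher and 3 lower in GOM at an unadjusted p below 0.05, which is 29.6% of those tested, against 19.9% of all genes. PAPPA, the protease that cleaves IGFBP4, had TPM values of 8.74 and 2.16 (GOM) and 0.78 and 3.13 (ULB) in wild boars, and of 11.2 and 2.03 (GOM) and 0.43 (ULB) in Bama pigs. Its log2 fold change was 2.29 (SE 0.75, adjusted p = 0.131 in edgeR's test), with the depots overlapping at wild boar ULB replicate 2. IGFBP1, a liver-made binding protein, had a TPM of 1.03 and 2.48 in Bama pig GOM and at most 0.12 in the other 5 libraries, from estimated counts of 6.4 and 12.8, and no fold is given against the floor. The sum of liver markers was highest in the same 2 libraries. ZBED6, a repressor of IGF2, was not analysed here, since no identifier was paired with its symbol.

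The compartment at each member was read from the first principal component (PC1) of the Hi-C contacts in 20-kb bins, where the authors set the sign by gene density and positive values mark compartment A. The files name these values A-B index, but they had mean 0 on every chromosome and were therefore taken as PC1. PC1 is comparable between libraries at a bin but not between chromosomes. The start-site bins of 8 of the 10 members lay in compartment A in all 7 libraries, where 72.0% of the start sites of 18725 protein-coding genes did. The exceptions were IGF1 and IGFBP3. IGFBP6 and IGFBP7 lay at the 98.7th and 99.1th percentile of mean PC1 on their chromosomes.

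**Figure D3:**
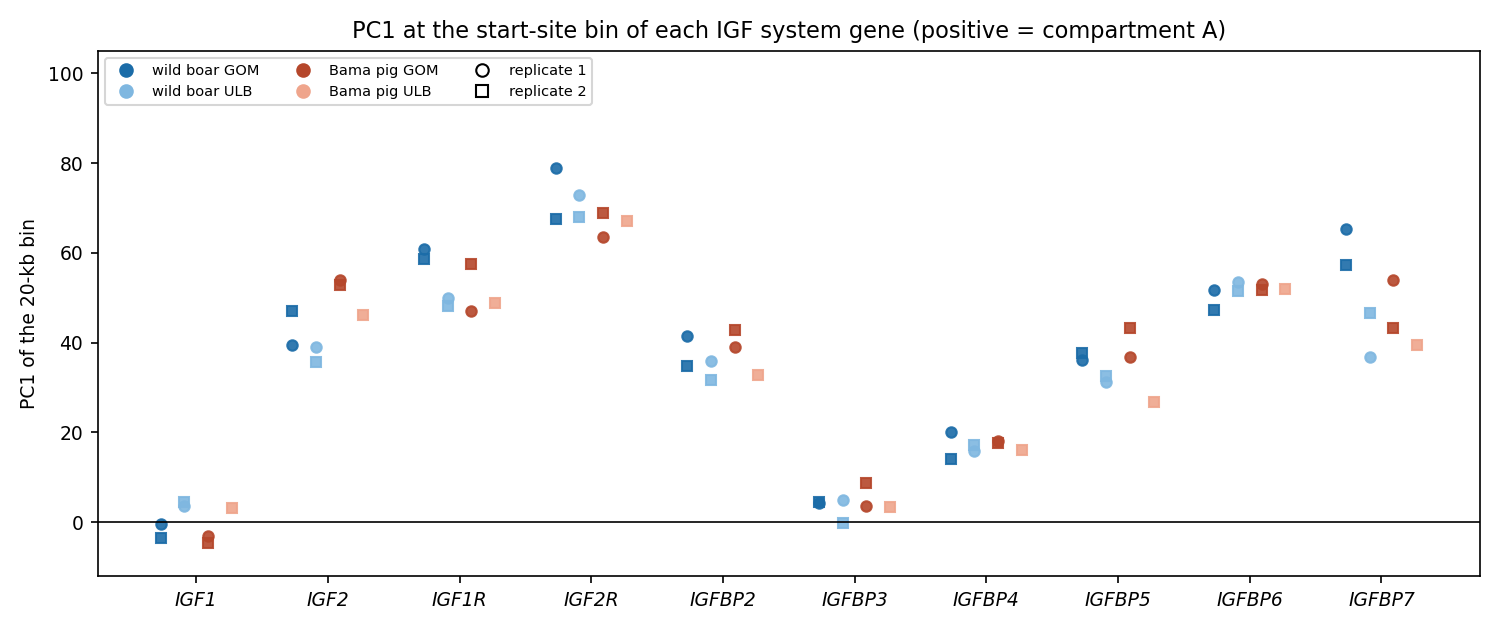
PC1 of the 20-kb bin (vertical axis) that holds the start site of each of the 10 members, with 1 point per Hi-C library and a line at 0, above which a bin is in compartment A. The 4 GOM points of IGF1 sit below 0 and its 3 ULB points above it, and 8 members lie well above 0 in all libraries.

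At the start site of IGF1, on chromosome 5 in the bin from 81760001 to 81780000, PC1 was -0.4 and -3.6 in wild boar GOM and -3.0 and -4.7 in Bama pig GOM. In ULB it was 3.7 and 4.6 in wild boars and 3.2 in the Bama pig. All 4 GOM libraries were thus in compartment B and all 3 ULB libraries in compartment A, in both breeds, a pattern that 0.88% of 113298 autosomal bins and 0.539% of protein-coding start sites showed.

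The difference in PC1 at IGF1 was -6.54 (SE 2.43, adjusted p = 0.171 in limma), not called where 2.3% of bins were. With the animal as a block it was -6.76 (SE 2.85, adjusted p = 0.280), in a fit that called 0 bins and gave 20287 an unadjusted p below 0.05. Leaving out single libraries gave -7.42 to -5.85. The sign change held for the first of the 8 bins of the gene. The next bin, which holds 1 of the 8 annotated transcript starts, was positive in all 7 libraries, and the last bin was negative in all 4 GOM libraries and in 2 of 3 ULB libraries. All values at the start site were small for this chromosome, with a mean of 0.0 at the 49.9th percentile. IGF1 expression was lower in GOM within each of the 3 animals, but not beyond the threshold, as given above.

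**Figure D4:**
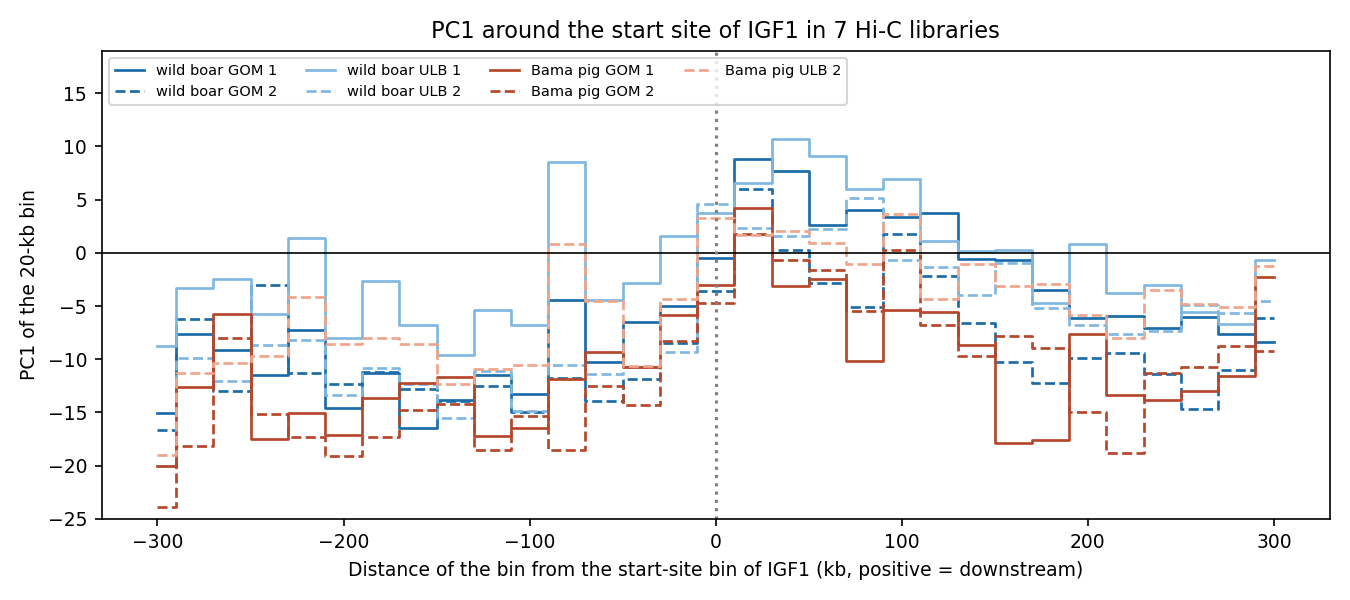
PC1 of 20-kb bins (vertical axis) by distance from the start-site bin of IGF1 in kb (horizontal axis, positive downstream) in 7 Hi-C libraries. In the bin at 0 the GOM libraries lie between -4.7 and -0.4 and the ULB libraries between 3.2 and 4.6, while the bin after it is positive in all 7.

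IGF2, on chromosome 2 from 1469183 to 1496417, had start-site PC1 values of 39.5 and 47.1 (GOM) and 39.0 and 35.7 (ULB) in wild boars, and of 53.9 and 52.8 (GOM) and 46.1 (ULB) in Bama pigs. Both wild boar GOM values lay below both Bama pig GOM values, as in 20.5% of bins. The breed difference in GOM was -10.0 (SE 4.18, adjusted p = 0.431 in limma) and the depot difference 6.47 (SE 2.78, adjusted p = 0.224). Without wild boar GOM replicate 1 the breed difference was -6.24. Neither was called, and IGF2 was in compartment A in every library.

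IGFBP7 had PC1 values of 65.2 and 57.3 (GOM) and 36.7 and 46.6 (ULB) in wild boars, and of 54.0 and 43.3 (GOM) and 39.4 (ULB) in Bama pigs. Its depot difference of 15.42 (SE 4.15, adjusted p = 0.0851 in limma) was the largest of the members and was not called. IGFBP5 had 36.2 and 37.6, 31.3 and 32.5, 36.7 and 43.3, and 26.8 in the same order. All 4 GOM libraries of IGFBP5 lay above all 3 ULB libraries, which 9.17% of bins did, with a difference of 8.25 (SE 2.95, adjusted p = 0.159) that was 4.99 without the Bama pig ULB library. For IGFBP5 the PC1 was thus higher in the depot where its fitted expression was lower, whereas for IGF1 both were lower in GOM, and none of these 4 differences was called.

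IGFBP3, on chromosome 18, was near 0, with PC1 values of 4.4 and 4.5 (GOM) and 5.0 and -0.1 (ULB) in wild boars, and of 3.7 and 8.7 (GOM) and 3.3 (ULB) in Bama pigs. The 1 negative value, in wild boar ULB replicate 2, put it in compartment A in 6 of 7 libraries. The depot differences of the other members were 7.77 (SE 3.28) for IGF1R, 5.87 (SE 2.89) for IGFBP2, 2.37 (SE 2.66) for IGFBP3, 1.41 (SE 3.45) for IGF2R, 1.02 (SE 2.57) for IGFBP4 and -1.55 (SE 2.56) for IGFBP6, with no adjusted p below 0.218. Between the breeds in GOM, no member start site was called, where 0.00265% of bins were. IGFBP7 differed by 12.64 (SE 4.97, adjusted p = 0.396), with 7.29 without Bama pig GOM replicate 2, and IGF1R by 7.35 (SE 4.60, adjusted p = 0.630), with 2.04 without Bama pig GOM replicate 1 and 12.66 without Bama pig GOM replicate 2. Both wild boar GOM values lay above both Bama pig GOM values for IGFBP7 and IGF1R, which 21.3% of bins did. No member changed sign between the breeds in GOM or ULB, as 2.41% and 3.41% of bins did.

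TADs were read from 4 lists, 1 for each breed and depot, each called by the authors on merged replicates, so TAD edges carry no replicate error. By the methods, 1 Bama pig ULB Hi-C library came from an earlier study. The merged Bama pig ULB list therefore rests on a further library that the PC1 values here do not include. IGF2 lay in a TAD of 420 kb, from 1080001 to 1500000 on chromosome 2, with the same edges in all 4 lists, and its outermost annotated start site was 4 kb inside the edge. Of its 17 annotated transcripts, 6 start within 1 kb of that site and the other 11 start 14.4 to 24.8 kb inside the edge. The start sites of 6.71% of protein-coding genes lay in a TAD with the same edges in all 4 lists. Among the members, IGF2 and IGFBP6 did, the latter in a TAD of 240 kb.

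The TAD of IGF2 held 16 annotated genes, 14 of them protein-coding, and INS, the insulin gene, lay 0.4 kb upstream of IGF2 in the same TAD. Of these genes, 7 had expression values and 2, CTSD and LSP1, had a TPM above 1 in every library. CTSD, a lysosomal protease, had a TPM of 120 to 499 over the libraries, and LSP1, a leukocyte-specific protein, 14.2 to 45.3. INS was listed at 0 in 6 libraries and at 0.39 TPM in wild boar ULB replicate 2. The muscle troponin genes TNNI2 and TNNT3 reached 120 and 106 TPM in wild boar ULB replicate 1, the library with skeletal muscle transcripts, and at most 2.23 in the others. IFITM10 had at most 0.11 TPM and SYT8 was listed at 0 in every library. None of the genes in this TAD that were tested was called between the depots (5 tested) or between the breeds in GOM (3 tested).

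**Figure D5:**
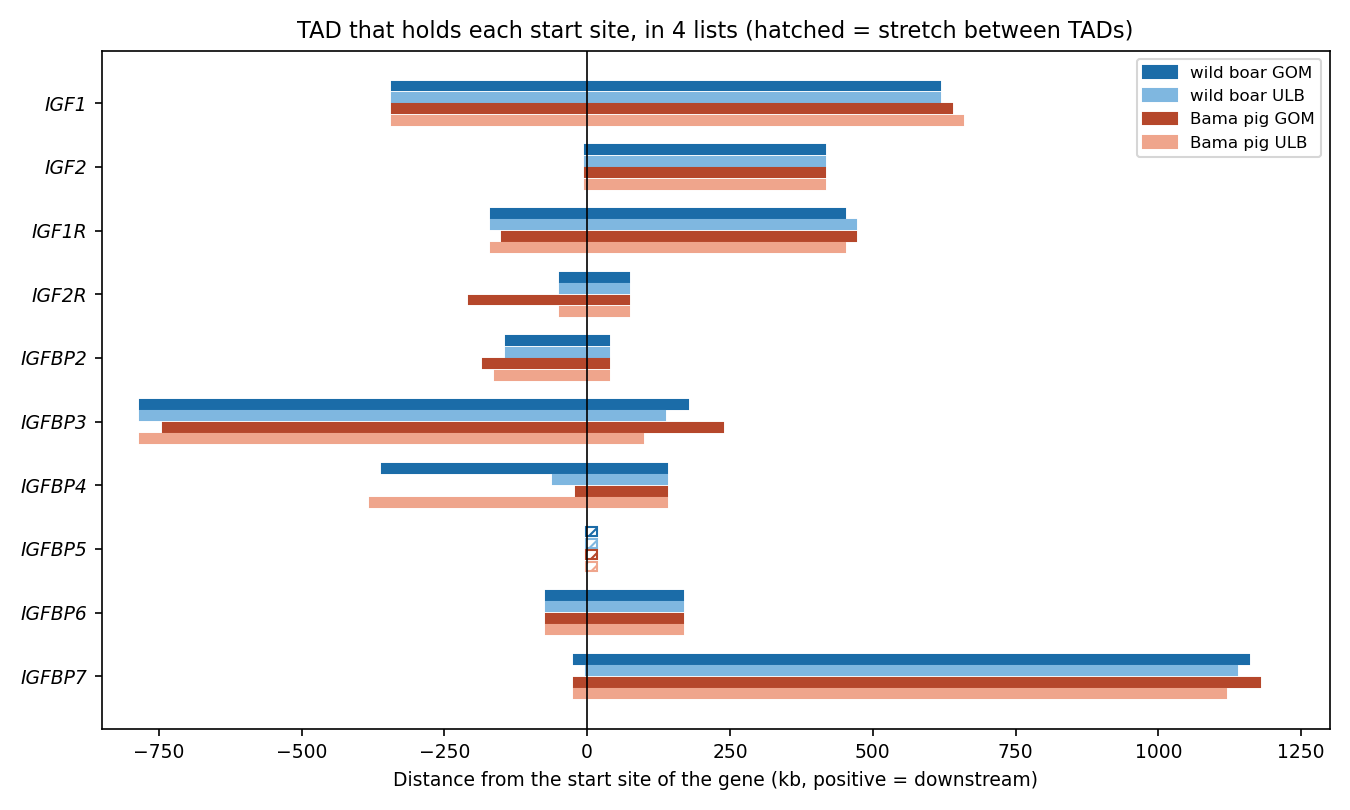
Extent of the TAD that holds each member's start site, as distance from that start site in kb (horizontal axis, positive downstream), with 1 bar for each of 4 breed and depot lists. The bars of IGF2 and IGFBP6 are the same in all 4 lists, those of IGFBP4 range from 160 to 520 kb, and IGFBP5 has hatched bars because it lies between TADs.

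IGFBP2 and IGFBP5 lie tail to tail on chromosome 15, 10.8 kb apart, with a TAD edge between them. The TAD of IGFBP2 ended at 118860000 in all 4 lists, and its length was 180 kb in both wild boar lists, 220 kb in Bama pig GOM and 200 kb in Bama pig ULB. IGFBP5 lay wholly inside a stretch of 20 kb between TADs, from 118860001 to 118880000, in all 4 lists, and the start sites of 8.93% of protein-coding genes lay outside TADs in all 4. These neighbours had depot differences of opposite sign in expression, given above.

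IGFBP4 had the TAD that varied most, at 500 kb in wild boar GOM, 200 kb in wild boar ULB, 160 kb in Bama pig GOM and 520 kb in Bama pig ULB. One edge, at 21840001 on chromosome 12, was shared by all 4 lists, and the longest and shortest TADs did not follow depot or breed. IGF2R lay across a TAD edge in every list, in a TAD of 120 kb in 3 lists and of 280 kb in Bama pig GOM.

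The other members lay wholly inside long TADs. IGF1 lay in TADs of 960 to 1000 kb, IGF1R in TADs of 620 to 640 kb and IGFBP3 in TADs of 880 to 980 kb that also held IGFBP1, 9.1 kb away. IGFBP7 lay in TADs of 1140 to 1200 kb, with its start site 2 to 22 kb from the edge. Both edges of each member were looked up from each list of a pair in the other, which gives 40 edges a pair. A match is to the nearest edge of any TAD in the other list, so a matched edge need not bound the same TAD. The edge at 118860000 is counted for both IGFBP2 and IGFBP5. Matched within 40 kb, 35 of 40 member edges were shared by the breeds in GOM (88.2% of all edges) and 39 of 40 in ULB (89.9% of all edges). Between the depots, 39 of 40 were shared in wild boars (86.5% of all edges) and 34 of 40 in Bama pigs (84.7% of all edges).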

How the data were processed

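RNA-seq and Hi-C values of 7 libraries each were used. Groups came from the sample titles. For RNA-seq, the authors deposited estimated counts and TPM per gene, made with kallisto (0.43.0 in the submitters' processing notes) against Sscrofa 11.1, without normalization between libraries. The compartment score that the authors deposited for each library and 20-kb bin came from KR and quantile normalized contact matrices. The files name it A-B index, but its mean is 0 on every chromosome, so it was read as the PC1 that the methods also describe. For TADs, the authors deposited start and end positions called on merged replicates. No column lacked a library.

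The members and lists were chosen with earlier results of these data known. Named genes were the 10 members, pathway genes that were called together with IGFBP1, ZBED6 and PAPPA, and the genes in the TAD of IGF2. The rule for the genes most like IGF2 could not be applied, since IGF2 had no expression row. Of the pathway list, AKT1, SOCS2, ZBED6 and HMGA2 had no row either. Symbols were matched through the Ensembl identifiers, with 14821 of 21280 genes paired with one, and positions were taken from RefSeq for Sscrofa 11.1.

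Counts were rounded and tested in edgeR 4.0.16 (quasi-likelihood F test, TMM, Benjamini-Hochberg adjustment over all genes tested) in R 4.3.3, keeping genes whose TPM exceeded 0.1 throughout at least 1 group. PC1 was tested in limma 3.58.1 over 113298 autosomal bins. TAD edges were matched within 40 kb. Alternatives were DESeq2 1.42.0, upper-quartile normalization, no filter, limma on log2(TPM + 0.5), the animal or number as a block, and leaving out each library. A breed term over 7 libraries was added after seeing the data. Each breed had 2 animals, and intervals of counting were not given because kallisto counts are estimates. PC1 and TADs carry no depth. Deviations of same-numbered wild boar libraries from their group means correlated at 0.154 between depots over 17877 genes. Wild boar and Bama pig GOM libraries, which share a number but no animal, correlated at 0.15, so this check does not separate a shared animal from a shared number. The pairing rests on the methods, by which each animal gave both depots, and the labels do not state it. The fits were also run on simulated data with large planted changes and independently drawn libraries. That simulation held no shared animals and no correlation between bins, so it does not bear on the pairing, on small differences or on neighbouring bins. Plots were drawn with matplotlib 3.10.9 in Python 3.11.15.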

Additional observations from a re-analysis of the deposited data

How the results depend on the processing

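With the animal as a replicate block, the number of genes called between the depots was 793 against 640, and members called went from 0 to 2. DESeq2 and the fit with no filter on low values also called 2 members, both higher in GOM, and 1399 and 999 genes. In that direction they called 809 of 17877 and 639 of 19549 genes tested. Limma on log2 TPM called 416 genes and the wild boar libraries alone 318, and leaving out a library gave 230 to 656 genes and 0 to 2 members. Between the breeds in GOM, where 4 genes were called, DESeq2 called 167, no filter 26, limma on log2 TPM 0, the replicate block 15 and the breed term over 7 libraries, chosen after seeing the data, 75. Leaving out a library gave 0 to 123 genes and 0 to 1 members. Between the breeds in ULB, where 45 genes were called, the counts were 418, 197 and 544 by DESeq2, no filter and limma, 91 with the replicate block and 181 with the ULB libraries alone, which also called 1 member. Leaving out a library gave 0 to 106. For the interaction, where 0 were called, they were 52, 7 and 316, and 0 to 1 on leaving out a library. Called PC1 bins went from 2609 between the depots to 0 with the replicate block and 0 to 700 on leaving out a library, and from 3 between the breeds in GOM to 2138 and 903 to 1738. In the block between the depots, Bama pig GOM replicate 1 has no ULB partner and does not bear on the depot difference. The PC1 differences of the members there equal those without that library, such as -6.76 at IGF1. The cause of the changes in these counts was not tested.

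Signs turned for members near 0. In GOM between the breeds, IGF1R was 0.028 with the replicate block, IGF2R -0.45 by limma on log2 TPM and -0.086 with the breed term over 7 libraries, and IGFBP4 -0.11 with upper-quartile normalization and -0.57 by limma. In ULB, IGF1 was -0.014 with the replicate block and IGFBP4 0.077 by limma. Leaving out a library gave log2 ranges of -0.56 to 0.068 for IGFBP6 between the depots, of -0.69 to 0.79 for IGF1R, -0.22 to 1.65 for IGFBP2 and -0.40 to 0.45 for IGFBP4 between the breeds in GOM, and of -0.049 to 0.77 for IGF1 in ULB. For PC1 the ranges were -1.87 to 3.92 for IGF2R and -0.31 to 2.55 for IGFBP4 between the depots, and -6.20 to 0.47 for IGFBP2, -4.20 to 0.72 for IGFBP3, -3.58 to 2.13 for IGFBP4 and -6.40 to 0.17 for IGFBP5 between the breeds. Numbers of different breeds mark different animals, so the block between breeds shares only a number. Leaving out the 1 Bama pig ULB library could not be fitted for ULB or the interaction. Member TAD edges matched numbered 147 of 160 within 40 kb, 136 within 20 kb and 150 within 80 kb.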
